A study of Homo sapiens with 6 samples.

Results

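The 6 RNA-seq libraries of edited EoL-1 cells were divided into a pair of sets that crossed the genotypes, and the programs that differed between these sets are described here. EoL-1 cells are an established human cell line derived from eosinophilic leukaemia. All 6 libraries carried the label of a CRISPR/Cas9 knockout of JUN, and 3 of them also that of a knockout of ATF3. The names of the deposited tables add a clone code. JUN knockout replicates 1, 2 and 3 were JUN-4A, JUN-4C and JUN-5Z, and double knockout replicates 1, 2 and 3 were JUN-4A-ATF3-3B, JUN-4C-ATF3-3A and JUN-5Z-ATF3-4E. The 4A side was JUN-4A, JUN-4A-ATF3-3B and JUN-4C-ATF3-3A (3 of 6 libraries), and the 5Z side was JUN-4C, JUN-5Z and JUN-5Z-ATF3-4E (the other 3). Each side thus mixed both genotypes, and the libraries of code 4C lay on opposite sides.

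The sides were chosen from the measured expression of these same libraries. A p-value over them would be circular, so none is given, and every difference between the sides is a description. Values are listed throughout in the order just given, the 3 libraries of the 4A side first. CPM is a gene's read count relative to its library's TMM-scaled size, and a difference is the mean log2 CPM of the 4A side minus that of the 5Z side. The labels do not say that the libraries came from separate clones or cultures, and no unedited library was analysed here. In bulk RNA, fewer cells of a kind and less of an RNA per cell cannot be told apart.

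JUN and ATF3 are transcription factors of the basic leucine zipper family, which bind DNA in pairs, and ATF4, a relative, directs the integrated stress response. In that response kinases sensing amino acid shortage, misfolded protein or other stress slow translation in general and favour that of ATF4. ATF4 in turn switches on genes for amino acid uptake and synthesis, for the enzymes that charge transfer RNAs, and for regulators such as DDIT3 and TRIB3. Heat shock chaperones, the respiratory chain and sterol synthesis are governed by other factors.

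The libraries held 26146998 to 29567970 estimated reads, and 12954 genes passed the filter on low counts. The first principal component carried 38.1% of the variance and ordered the libraries from JUN-5Z (−31.9) and JUN-5Z-ATF3-4E (−27.2) through JUN-4C (−12.0) and JUN-4C-ATF3-3A (11.1) to JUN-4A-ATF3-3B (27.5) and JUN-4A (32.4). The order was thus a gradient with both 4C libraries in its middle. The closest pair was JUN-5Z with JUN-5Z-ATF3-4E, at a root mean square log2 difference of 0.441, and the farthest was JUN-4A with JUN-5Z, at 0.651. The 4C libraries differed from each other by 0.513, about as far as the 4A libraries (0.515) that shared a side. JUN-4C-ATF3-3A was thus slightly nearer to JUN-4C, across the split, than to JUN-4A-ATF3-3B (0.523) and JUN-4A (0.534) on its own side.

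**Figure D1:**
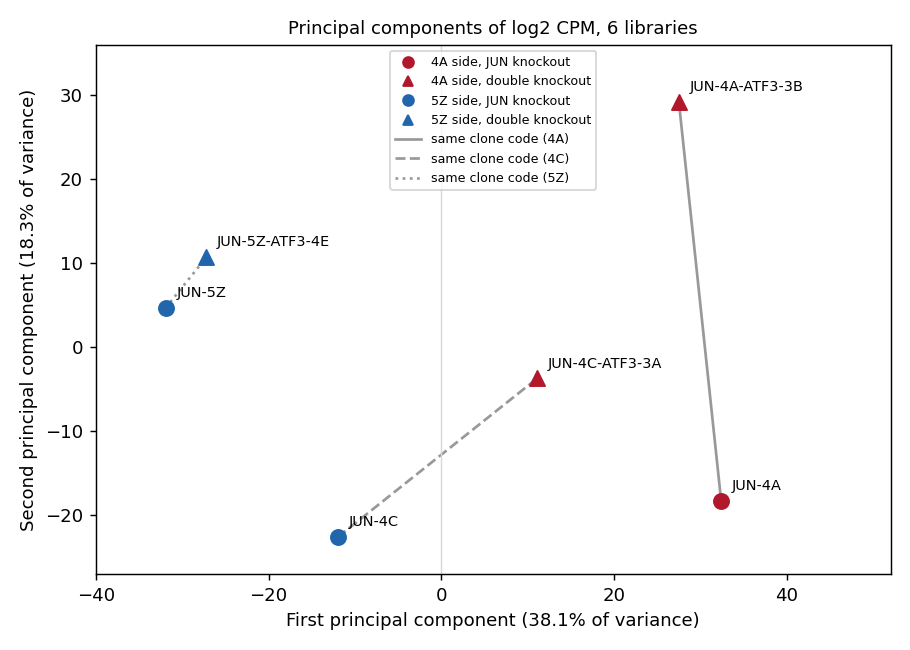
Principal components of log2 CPM over 12954 genes. Each point is 1 library, coloured by side and shaped by genotype, with lines joining libraries of the same clone code; the 4A and 5Z pairs each stay on 1 side of 0 on the first component, while the 4C pair runs from −12.0 to 11.1.

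Of the 12954 genes, 4714 (36.4%) had values that did not overlap between the sides, 2306 (17.8%) higher on the 4A side and 2408 (18.6%) lower. The typical difference was small, with a median size of 0.19 and 5% to 95% limits of −0.53 and 0.61 on the log2 scale. At least 2-fold with no overlap were 212 genes (1.64%), of which 145 (1.12%) were higher and 67 (0.517%) lower on the 4A side. These shares are a property of how the sides were chosen and nothing is read from them. The counts without overlap of every list below stand beside the 17.8% higher and 18.6% lower of all tested genes. Leaving out JUN-4C gave 257 higher and 133 lower, leaving out JUN-4C-ATF3-3A gave 248 and 169, and leaving out JUN-4A gave 111 lower, with fewer libraries that could overlap in each case. The genotype contrast that the labels give called 0 of 12954 genes (0.0%) in edgeR's quasi-likelihood test at an adjusted p of 0.05. Before adjustment 753 genes were under 0.05, and the lowest adjusted p from edgeR was 0.397. With the other tools, DESeq2 called 71 genes and limma-voom 4.

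The targeted genes were examined by library. JUN mRNA was at 13.2, 13.8 and 16.6 CPM on the 4A side and at 27.2, 24.6 and 25.7 CPM on the 5Z side, a difference of −0.83. All 3 libraries of the 4A side were lower, so JUN mRNA separated the sides while the genotypes overlapped (edgeR log2 fold change for genotype −0.21, SE 0.32, adjusted p = 0.974). ATF3 mRNA was at 20.2, 13.1 and 10.0 CPM on the 4A side and at 13.7, 8.89 and 7.63 CPM on the 5Z side. These ranges overlapped, with the highest value in JUN-4A. Edited transcripts can persist, so these levels check neither knockout.

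The ATF4 stress response and tRNA synthetase genes were the list with the largest positive median. All 32 tested members (of 33) had a difference above 0, with a median of 0.53, and 24 (75.0%) did not overlap, all higher on the 4A side. The median over all genes was 0.0019. Among the JUN knockout libraries alone the median was 0.52 and among the double knockout libraries alone 0.66. The sides were chosen from the values of these same libraries, so both medians are a description only. For members without overlap their direction is fixed by the sides. The per-library medians, each gene set against its own mean over the 6 libraries, were 0.37, 0.34 and 0.17 on the 4A side and 0.01, −0.34 and −0.44 on the 5Z side. The list therefore ran as a gradient, with JUN-4C at the middle level and both 5Z libraries lowest.

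The upstream 250 bases of RefSeq promoters (GRCh38.p14) were searched on both strands for the composite element read by ATF4 with a C/EBP partner, as TGATGNAA. It was present in 4 of the 26 members that had a promoter sequence (15.4%) and in 866 of all 27195 promoters (3.18%). A match is a description of letters in this window and not a bound site. The promoters of CHAC1 (chr15:40953221-40953470, plus strand), ASNS (chr7:97872409-97872658, minus strand) and AARS1 (chr16:70289507-70289756, minus strand) are shown because they held the element and these genes did not overlap between the sides. The element is in capitals, on the opposite strand in CHAC1 and AARS1, and starts 209, 68 and 187 bases before the start site.
CHAC1: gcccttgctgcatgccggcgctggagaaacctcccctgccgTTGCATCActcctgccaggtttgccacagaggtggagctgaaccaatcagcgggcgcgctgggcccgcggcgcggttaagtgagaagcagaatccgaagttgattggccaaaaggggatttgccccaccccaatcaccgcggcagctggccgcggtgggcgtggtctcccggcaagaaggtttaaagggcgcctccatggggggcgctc
ASNS: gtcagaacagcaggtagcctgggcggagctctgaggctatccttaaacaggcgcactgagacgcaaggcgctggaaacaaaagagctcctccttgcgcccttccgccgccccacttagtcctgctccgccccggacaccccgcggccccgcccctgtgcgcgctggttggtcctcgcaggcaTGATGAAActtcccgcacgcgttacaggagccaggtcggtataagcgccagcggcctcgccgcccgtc
AARS1: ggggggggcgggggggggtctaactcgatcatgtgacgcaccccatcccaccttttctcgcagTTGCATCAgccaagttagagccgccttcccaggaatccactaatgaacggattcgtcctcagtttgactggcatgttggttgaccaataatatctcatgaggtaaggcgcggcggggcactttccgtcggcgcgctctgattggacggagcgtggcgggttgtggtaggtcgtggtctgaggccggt

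Genes of amino acid uptake and synthesis are given first. SLC7A11, the cystine transporter subunit, was at 164, 174 and 141 CPM on the 4A side and at 89.1, 50.0 and 61.9 CPM on the 5Z side (difference 1.29). SLC7A5, the leucine transporter subunit and the most abundant member, was at 1540, 1616 and 1367 CPM against 1283, 964 and 954 CPM (0.51). For both genes the lowest library of the 4A side was JUN-4C-ATF3-3A and the highest of the 5Z side JUN-4C. ASNS, asparagine synthetase, whose promoter is printed above, was at 307, 261 and 236 CPM against 212, 150 and 126 CPM (0.74). PHGDH and PSAT1, enzymes of serine synthesis, differed by 0.72 and 0.54, and MTHFD2, of mitochondrial one-carbon metabolism, by 0.91 (809, 723 and 676 CPM against 533, 350 and 322 CPM). The same ranking of libraries, with the 4A codes highest and the 5Z codes lowest, was seen in each of these enzymes.

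Regulators are given next, with differences that ranged widely. TRIB3, a pseudokinase induced by ATF4, was at 161, 175 and 79.9 CPM on the 4A side and at 48.4, 38.8 and 34.2 CPM on the 5Z side (1.71). DDIT4, an inhibitor of mTORC1 signalling, was at 254, 338 and 296 CPM against 171, 88.3 and 113 CPM (1.30). DDIT3, the stress factor CHOP, was at 25.3, 26.7 and 18.1 CPM against 14.1, 10.3 and 8.87 CPM (1.08). TRIB3 and DDIT3 were lower in JUN-4C-ATF3-3A than in both 4A libraries, whereas DDIT4 was not. CHAC1, a glutathione-degrading enzyme, was at 60.2, 67.9 and 52.7 CPM against 46.7, 22.5 and 22.5 CPM (1.06). ATF5, a relative of ATF4 counted with the AP-1 list, was at 104, 84.5 and 32.1 CPM against 19.2, 21.02 and 26.5 CPM (1.57), so that it was far higher in the 4A codes than in any other library. ATF4 mRNA itself was at 718, 728 and 643 CPM against 664, 558 and 489 CPM (0.30), and the sides overlapped. ATF4 is controlled mainly in its translation, which these data do not measure.

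Most transfer RNA synthetases were among the less different members. WARS1, for tryptophan, stood apart at 652, 681 and 564 CPM against 387, 279 and 294 CPM (0.99), and it is also known as an interferon-induced gene. SARS1, for serine, differed by 0.68 and AARS1, for alanine, by 0.49. NARS1 and YARS1, for asparagine and tyrosine, differed by 0.20 each and overlapped between the sides. ALDH1L2, a mitochondrial folate enzyme, gave the list's largest difference, 6.19, but overlapped: it was at 123, 124 and 49.8 CPM on the 4A side and at 52.9, 0.423 and 0 CPM on the 5Z side. Its loss was in both 5Z libraries, and JUN-4C and JUN-4C-ATF3-3A were alike.

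**Figure D2:**
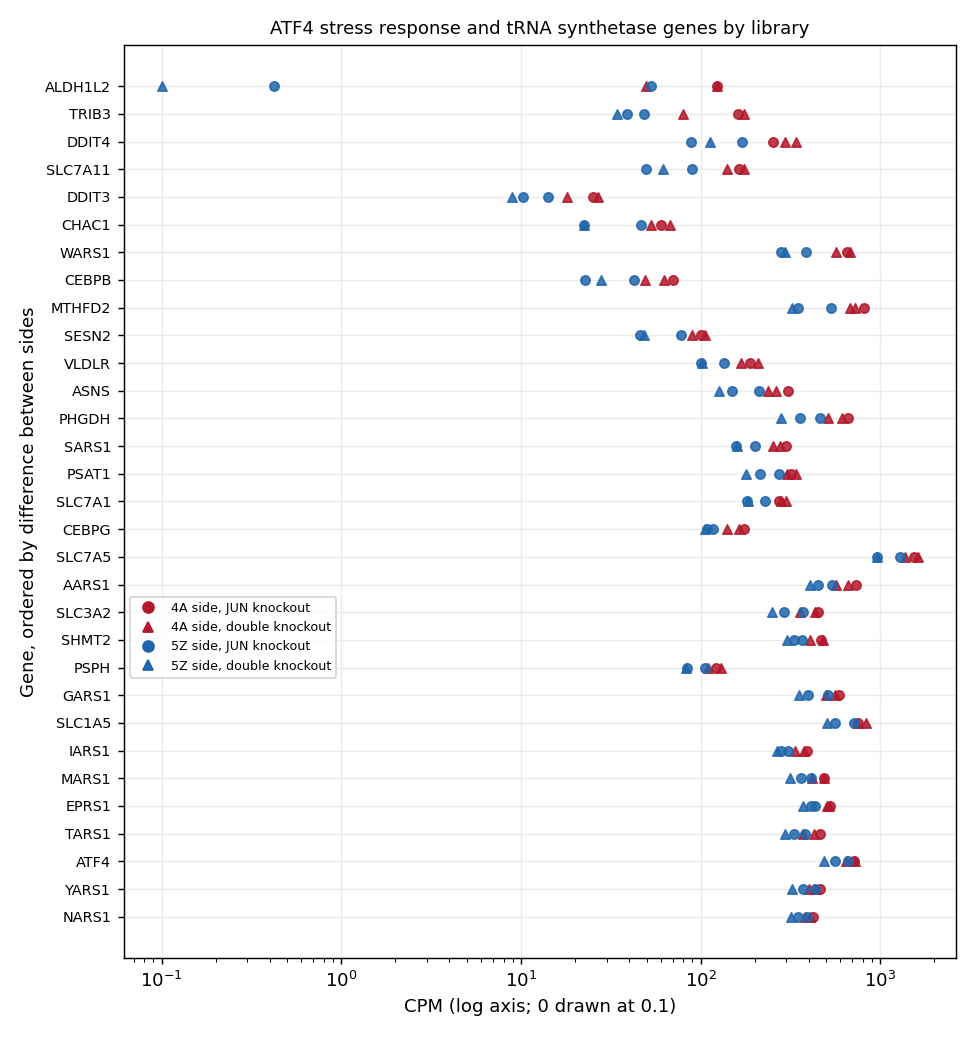
CPM on a log axis of the 31 members of the ATF4 list with a mean of at least 5 CPM, 1 row per gene and 1 point per library, with genes ordered by the difference between the sides. Red points (4A side) lie to the right of blue points (5Z side) in most rows, and ALDH1L2 stands apart because of the 2 libraries of code 5Z.

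Mitochondrial transcripts went the other way. All 13 mitochondrially encoded genes did not overlap and were lower on the 4A side, with a median difference of −0.43. They took 4.36%, 4.50% and 4.68% of the reads on the 4A side and 6.03%, 6.16% and 5.69% on the 5Z side. MT-ND5, a complex I subunit, was at 1420, 1602 and 1823 CPM against 2630, 2836 and 2517 CPM (−0.73). MT-CO1, the catalytic subunit of cytochrome oxidase and the most abundant, was at 12280, 13610 and 14260 CPM against 17880, 17980 and 16930 CPM (−0.40). The 3 libraries of a side were close together for these transcripts, and JUN-4C was as high as the 5Z libraries.

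Nuclear genes of mitochondria showed a smaller difference in the same direction. Of 36 nuclear respiratory chain genes, 26 (72.2%) were lower without overlap and 0 higher, with a median of −0.20. COX6C, a cytochrome oxidase subunit, was at 93.2, 109 and 110 CPM against 154, 174 and 140 CPM (−0.58), and NDUFAB1, the mitochondrial acyl carrier protein, at 48.3, 56.3 and 52.95 CPM against 75.7, 82.4 and 73.8 CPM (−0.56). ATP5F1B, of ATP synthase and the most abundant, differed by −0.14. A list of 77 mitochondrial ribosomal protein genes, added after the data were seen, had 51 lower and 1 higher without overlap and a median of −0.26.

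Many of these genes are short, and both gene length and GC content moved with the split. The 2591 shortest genes (up to 1530 bases) had a median difference of −0.098, with 29.6% lower and 8.18% higher without overlap, and the 2591 longest (from 4780 bases) had 0.103, with 7.06% lower and 29.9% higher. Genes of the lowest GC content (up to 41.3%) had 0.082, with 9.85% lower and 27.3% higher. Those of the highest (from 58.4%) had −0.072, with 25.9% lower and 11.5% higher. The median length was 784 bases for mitochondrially encoded, 1149 for nuclear respiratory chain and 1160 for mitochondrial ribosomal protein genes, and 2410 for the ATF4 list. After a correction for length and GC content, chosen after the data were seen, the medians were −0.32, −0.16, −0.22 and 0.49. The part of RNA quality or library preparation in the length and GC gradients was not tested. For cytosolic ribosomal protein genes, with a median length of 729 bases, the median was −0.05, and it was 0.05 with this correction and 0.06 on the TPM scale. RPS6, the most abundant of them, was at 4000, 4755 and 4428 CPM against 4362, 4565 and 4701 CPM, which overlapped.

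Heat shock chaperones were lower on the 4A side. Of 13 tested members (of 16), 10 (76.9%) were lower without overlap and 0 higher, with a median of −0.36 (−0.37 after the length and GC correction). HSPE1, the small subunit of the mitochondrial chaperonin, was at 72.4, 91.4 and 94.7 CPM against 162, 206 and 158 CPM (−1.02). HSPH1, a nucleotide exchange factor of HSP70, was at 141, 153 and 159 CPM against 247, 324 and 248 CPM (−0.85). HSP90AA1, the inducible HSP90, was at 757, 941 and 958 CPM against 1243, 1682 and 1432 CPM (−0.71). In these 3 genes JUN-4A was the lowest library and JUN-5Z the highest. BAG3, a co-chaperone of HSP70, had the largest difference of the list (−2.36, and −1.16 on the TPM scale), at the low level of 0.404, 0.241 and 1.48 CPM against 3.45, 3.16 and 2.72 CPM. HSPA8, the constitutive HSP70 and the most abundant member, overlapped (1702, 2045 and 2279 CPM against 2156, 2578 and 2583 CPM).

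Unfolded protein response genes, which serve folding in the endoplasmic reticulum, did not move as a list. Of 20, 6 were higher and 4 lower without overlap, with a median of −0.06 (0.04 on the TPM scale). CREB3L2, a transmembrane transcription factor of that compartment, was at 54.5, 64.8 and 56.5 CPM against 34.5, 28.3 and 33.9 CPM (0.86). SDF2L1, a luminal chaperone partner, was at 6.21, 7.88 and 8.49 CPM against 10.8, 13.7 and 13.2 CPM (−0.73). The most abundant member, XBP1, which encodes the spliced factor of this response, differed by 0.31 without overlap.

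Cholesterol synthesis and uptake genes were lower on the 4A side, with JUN-4A far below the rest. Of 24 tested members (of 25), 16 (66.7%) were lower without overlap and 0 higher, with a median of −0.43. HMGCS1, the synthase before HMG-CoA reductase, was at 31.5, 76.7 and 76.0 CPM against 93.7, 93.0 and 106 CPM (−0.78). DHCR7, which makes cholesterol in the last step of one branch, was at 24.9, 65.4 and 63.0 CPM against 80.8, 80.3 and 101 CPM (−0.89). INSIG1, the sterol-sensing retention factor and the most abundant, was at 526, 601 and 732 CPM against 950, 918 and 1012 CPM (−0.64). The per-library medians were −0.66, 0.05 and −0.04 on the 4A side and 0.19, 0.19 and 0.31 on the 5Z side. Without JUN-4A the list's median was −0.22. SREBF2, the master regulator, overlapped (0.12). The upstream 250 bases were also searched for the sterol regulatory element, as TCACNCCAC. It was present in 1 of the 18 members that had a promoter sequence (5.56%), SREBF2, and in 239 of all 27195 promoters (0.879%). Fatty acid synthesis genes had a median of 0.16, with 2 of 13 higher and 2 lower without overlap. FASN, fatty acid synthase, was at 166, 274 and 279 CPM against 293, 305 and 343 CPM (−0.42), and SCD, a desaturase, was at 405, 884 and 750 CPM against 778, 758 and 867 CPM, again with JUN-4A lowest.

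**Figure D3:**
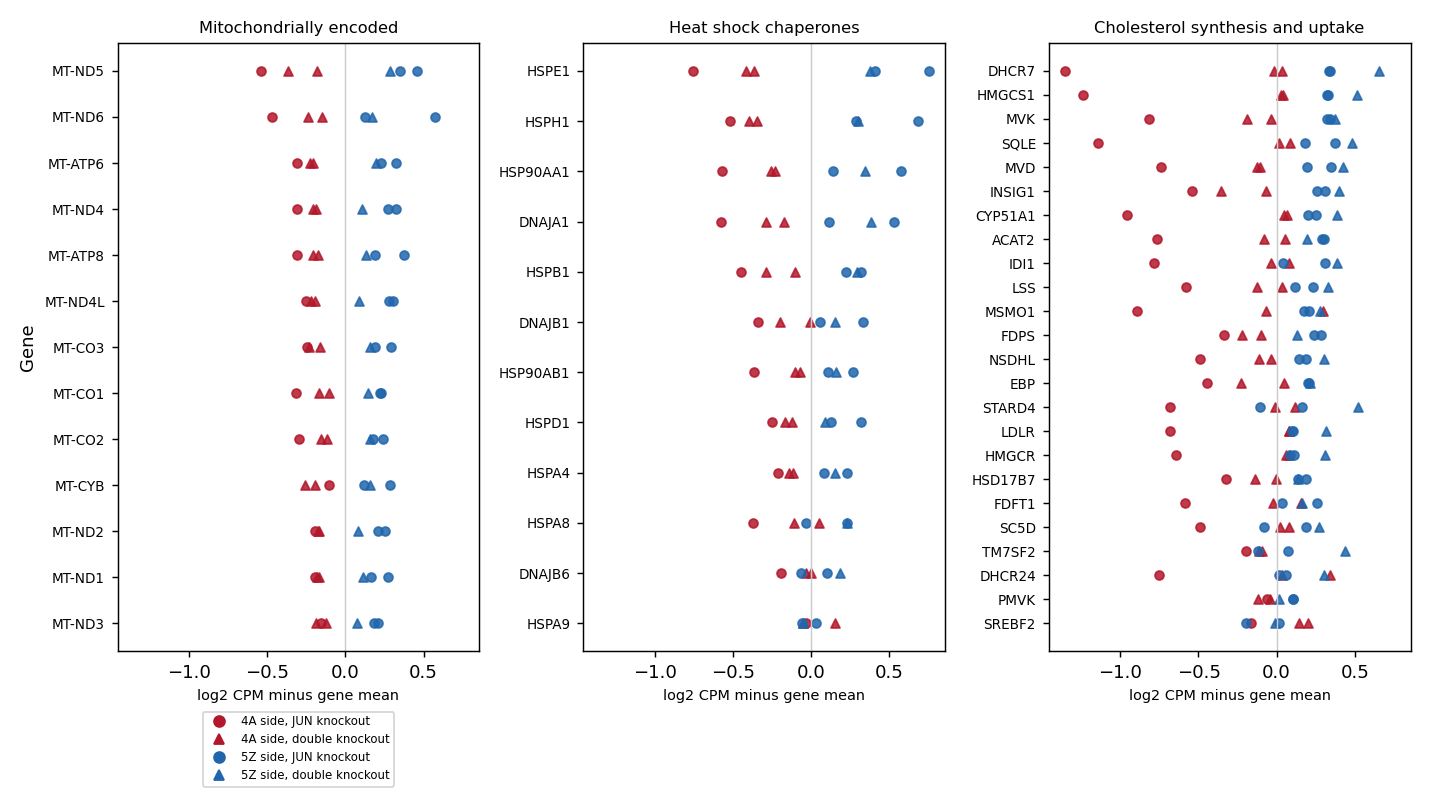
log2 CPM of each gene minus its mean over the 6 libraries for the mitochondrially encoded, heat shock and cholesterol lists, 1 row per gene and 1 point per library, for members with a mean of at least 5 CPM (BAG3 is below it). Red points (4A side) lie left of blue points (5Z side) in all 13 mitochondrial rows, and JUN-4A (red circle) lies apart in most cholesterol rows.

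Ribosome biogenesis genes followed the chaperones. Of 30 tested members of the MYC network and ribosome biogenesis list, 15 (50.0%) were lower and 2 higher without overlap, with a median of −0.25. NOP16, a nucleolar assembly factor, was at 43.2, 51.5 and 50.1 CPM against 73.8, 92.5 and 80.1 CPM (−0.76). MXI1, which competes with MYC for its partner MAX, was higher at 22.8, 22.3 and 23.6 CPM against 21.01, 7.93 and 16.1 CPM (0.71). The most abundant member, NPM1, a nucleolar histone chaperone, overlapped at −0.11.

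Glycolysis and hypoxia genes went both ways, with a list median of −0.11 that was 0.01 on the TPM scale. Of 28, 12 (42.9%) were lower and 5 (17.9%) higher without overlap. The share higher was near the 17.8% of all tested genes. Most of the lower set were glycolytic enzymes, among them PKM (540, 684 and 655 CPM against 851, 911 and 972 CPM; −0.55), LDHA (−0.54), PGK1 (−0.43), ENO1 (−0.31) and, as the most abundant, GAPDH (2800, 3245 and 3052 CPM against 3360, 3406 and 3315 CPM; −0.15). With the length and GC correction GAPDH stood at −0.07. The 5 higher genes were VEGFA, the vascular growth factor, SLC2A3, a glucose transporter, PDK1, which restrains pyruvate entry to mitochondria, NDRG1, a hypoxia-induced gene, and SLC16A3, a lactate exporter. VEGFA was at 619, 676 and 552 CPM against 391, 289 and 287 CPM (0.94). It is known as a target of both hypoxia factors and ATF4. HK1, hexokinase, overlapped and followed the code: 8.82 and 6.19 CPM in both 4A libraries and 22.97 to 26.8 CPM in the other 4. The enzymes named beyond PKM, GAPDH, HK1 and VEGFA were chosen after their values were seen, as were other list members named outside the rule of the methods.

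The cell type on the labels is eosinophil, and its defining genes were largely absent. CLC, PRG3, EPX, IL5RA and GATA1 had 0 reads in all 6 libraries, while PRG2, CCR3, SIGLEC8 and ALOX15 had 24, 25, 13 and 23 reads over all 6. Of 16 marker genes, 7 were tested, and 3 (42.9%) were lower on the 4A side without overlap: RNASE2, RNASE3 and THBS4. RNASE2, the eosinophil-derived neurotoxin, was at 30.3, 67.7 and 52.8 CPM against 79.0, 95.8 and 87.3 CPM (−0.87). RNASE3, the eosinophil cationic protein and a close paralog that can share its reads, was at 5.26, 12.3 and 9.59 CPM against 13.9, 15.1 and 17.1 CPM (−0.84). JUN-4A was the lowest library in both. The list's median of −0.42 rests on 7 genes and was −0.05 on the TPM scale. The list's summed level was 172 to 300 TPM on the 4A side and 266 to 312 TPM on the 5Z side, carried largely by CAT, catalase, which most cells express and which overlapped (0.04).

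Some secreted and granule genes of monocytes were lower on the 4A side as well. LYZ, lysozyme, was at 102, 140 and 210 CPM against 380, 371 and 430 CPM (−1.44), and the sides were well apart. S100A8, a subunit of calprotectin, was at 2.83, 7.68 and 7.32 CPM against 16.7, 16.7 and 16.1 CPM (−1.59). Over the 23 tested monocyte and macrophage genes (of 34), 5 (21.7%) were lower and 3 (13.0%) higher without overlap, near the 18.6% and 17.8% of all tested genes. The median of −0.23 became 0.03 without JUN-4A and 0.01 without JUN-5Z-ATF3-4E. CD14 had 15 reads over all 6 libraries, and FCGR3A had 0. The list summed to 570 to 668 TPM on the 4A side and 739 to 887 TPM on the 5Z side. CTSB, a lysosomal protease, and FCGR1A, the high-affinity IgG receptor, were higher on the 4A side by 0.26 and 0.72, so the list did not move as one. CLEC12A, an inhibitory myeloid lectin, was at 4.19, 4.38 and 5.23 CPM against 8.49, 12.7 and 10.6 CPM (−1.18).

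Of neutrophil granule genes 8 of 19 were tested, 2 (25.0%) were higher without overlap and ELANE, AZU1, PRTN3 and LTF had 0 reads. CTSG, cathepsin G, was at 22.6, 50.5 and 19.3 CPM against 9.97, 11.4 and 13.1 CPM (1.29), with JUN-4A-ATF3-3B highest. PRSS57, a serine protease gene and the most abundant member, overlapped (−0.02). Of B cell and plasmacytoid markers 6 of 13 were tested, with MS4A1 at 1 read and JCHAIN at 0 over all libraries, and the list summed to 41.7 to 203 TPM on the 4A side and 51.0 to 94.3 TPM on the 5Z side. CD79A, of the B cell receptor, was at 6.10, 8.12 and 4.51 CPM against 2.16, 2.43 and 2.86 CPM (1.27). EBF1, a B lineage transcription factor, was at 9.19, 13.4 and 9.33 CPM against 5.00, 3.85 and 4.21 CPM (1.26). The list's median of 0.41 was −0.12 with no low-count filter and −0.07 and −0.13 without JUN-4C and JUN-4A-ATF3-3B. Both genes were higher in all 3 libraries of the 4A side while the defining surface marker MS4A1 was near 0.

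Of T and NK cell markers 6 of 18 were tested, and 2 were higher and 0 lower without overlap (median 0.16). NKG7, a granule protein and the most abundant, overlapped (−0.05). CD3E, CD2, GZMA and GZMB had 0 reads, and the list summed to 168 to 187 TPM and 149 to 190 TPM on the 4A and 5Z sides. PRF1, perforin, was at 7.64, 4.95 and 3.07 CPM against 1.51, 0.924 and 0.742 CPM (2.19, and 1.49 on the TPM scale). NCAM1, the adhesion molecule CD56 that some leukaemias express, was at 59.7, 71.4 and 52.4 CPM against 27.9, 32.0 and 21.3 CPM (1.18). Globin genes had 0 reads, and the 3 tested of 18 erythroid and megakaryocyte markers overlapped. The erythroid list summed to 13.3 to 14.6 TPM and 9.68 to 12.9 TPM. Of mast cell and basophil markers 2 of 12 were tested and both overlapped, with sums of 184 to 262 TPM and 143 to 265 TPM. Of the 10 MHC class II genes that were matched, 3 were tested, all overlapped, and HLA-DRA had 33 reads over all libraries.

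MHC class I and interferon response genes were modestly higher on the 4A side. Of 11 tested class I genes, 6 (54.5%) were higher without overlap and 0 lower, with a median of 0.37. Genes of the MHC complex have alternative copies in the reference, so their counts are uncertain. ERAP2, a peptidase that trims peptides for class I and lies outside the complex, was at 83.7, 84.4 and 88.1 CPM against 65.8, 63.4 and 68.7 CPM (0.37). B2M, the light chain and most abundant member, overlapped (0.03). Of 29 interferon response genes, 8 (27.6%) were higher and 1 (3.45%) lower without overlap, with a median of 0.27. Over all tested genes these shares were 17.8% and 18.6%. HERC5, the ligase for ISG15, was at 29.3, 30.8 and 28.6 CPM against 14.7, 18.2 and 17.2 CPM (0.82), and XAF1, the most abundant, at 283, 281 and 253 CPM against 210, 195 and 179 CPM (0.49). RSAD2 and IFIT5, both antiviral effectors, differed by 1.17 and 1.05 at under 3 CPM, and IFIT5 by 0.43 on the TPM scale. ISG15 itself was at 3.49, 3.74 and 3.49 CPM against 3.78, 3.66 and 3.39 CPM, and BST2 was the 1 member lower (−0.59).

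The signalling lists are read against all tested genes, of which 17.8% were higher and 18.6% lower without overlap. Among 25 tested AP-1 and related factors, 9 (36%) were higher and 3 (12%) lower (median 0.16). The 3 lower ones were JUN itself, FOSL1 (5.26, 5.87 and 8.41 CPM against 10.2, 11.4 and 13.4 CPM; −0.85) and BATF (7.09, 6.47 and 9.02 CPM against 11.9, 12.1 and 10.8 CPM; −0.63), all of which can form AP-1 dimers. FOSL2 was higher at 278, 294 and 339 CPM against 238, 203 and 262 CPM (0.38). Among 20 immediate early and MAPK feedback genes, 6 were higher and 1 lower, including ETV5, an ETS factor induced by ERK (125, 111 and 88.8 CPM against 78.0, 63.7 and 66.0 CPM; 0.63), and DUSP4, an ERK phosphatase (0.83). SPRY1 gave 1.58, but over 50% of its reads sat in transcripts listed at 0 on 1 side, so it is uncertain. IER2, the most abundant, differed by 0.31.

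JAK-STAT target genes were higher in 7 and lower in 2 of 20 without overlap (median 0.13). PIM1, a STAT5-induced kinase and the most abundant, was at 927, 1267 and 957 CPM against 654, 550 and 677 CPM (0.74). STAT5A and STAT5B differed by 0.46 and 0.28, and SOCS1, a feedback inhibitor, by 0.48. Growth factor and cytokine receptors had 5 higher (20.8%) and 2 lower (8.33%) of 24 (median 0.01). IL7R was at 3.60, 4.74 and 6.86 CPM against 13.0, 9.39 and 8.62 CPM (−1.04), while FLT3, a receptor kinase of early haematopoietic cells, was at 284, 270 and 291 CPM against 220, 164 and 215 CPM (0.51). IL17RA, the most abundant receptor, overlapped (−0.03). NF-kB pathway and inflammatory mediators had 3 higher (15.8%) and 5 lower (26.3%) of 19 (median −0.10). The receptor list's share higher and the NF-kB list's share higher were near those of all genes. TNF was at 69.7, 75.4 and 72.5 CPM against 96.2, 91.6 and 91.8 CPM (−0.36), and CCL2, a chemokine that draws monocytes, at 17.2, 11.7 and 13.8 CPM against 10.2, 4.39 and 6.89 CPM (1.05).

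Adhesion genes leaned higher on the 4A side, with 7 higher and 2 lower of 19 (median 0.28). CD44, the hyaluronan receptor, was at 481, 394 and 398 CPM against 312, 247 and 290 CPM (0.58), and ICAM3 at 61.8, 60.6 and 39.5 CPM against 31.4, 15.1 and 36.8 CPM (1.03). ITGAX, an integrin of myeloid cells, differed by 0.98, and ITGAL, the most abundant, overlapped (0.26). Without JUN-4A the median of this list was 0.15 and without JUN-5Z 0.17. Among 10 chemokine receptors 3 were higher (median 0.09, but −0.09 with genotype as a term), led by C5AR1 (1.44, and 0.38 on the TPM scale) and CX3CR1 (1.06), both below 7 CPM, and CXCR4, the most abundant, overlapped (−0.14).

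Lineage factors and the leukaemia program had small medians, with more members higher than lower without overlap. Over all tested genes 17.8% were higher and 18.6% lower. Of 28 lineage transcription factor genes 8 (28.6%) were higher and 2 (7.14%) lower without overlap (median 0.12). CEBPB, of myeloid cells and also induced by ATF4, was at 69.8, 62.2 and 49.1 CPM against 42.5, 22.8 and 28.1 CPM (0.99). IRF8, of monocyte development, was at 131, 169 and 209 CPM against 223, 252 and 255 CPM (−0.54), and IKZF2, a zinc finger factor of the Ikaros family, differed by 0.73. Of 19 HOXA, MEIS1 and KMT2A program genes 7 (36.8%) were higher and 1 (5.26%) lower (median 0.11). MEF2C, a myeloid leukaemia factor, was at 55.8, 26.1 and 26.5 CPM against 25.7, 18.3 and 20.1 CPM (0.67, and 0.15 on the TPM scale). CDK6, the most abundant, overlapped (0.22).

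The cell cycle lists had small medians, with few members lower without overlap. Over all tested genes 17.8% were higher and 18.6% lower. Of 28 G2 and M phase genes 6 (21.4%) were higher and 1 (3.57%) lower (median 0.05). Of 27 G1/S and replication genes 4 (14.8%) were higher and 0 (0.0%) lower (median 0.00). TOP2A differed by 0.27, HMMR by 0.36 and CDT1, which licenses replication origins, by 0.99 (401, 346 and 285 CPM against 237, 162 and 132 CPM). MCM4, the most abundant of the second list, overlapped (−0.20). p53 targets had 3 higher and 3 lower of 22 (13.6% each, median −0.17, but 0.06 on the TPM scale). Of 10 replication-dependent histone genes 0 were without overlap. BCL2 family genes had 3 higher (20.0%) and 5 lower (33.3%) of 15. The survival gene BCL2 was at 321, 349 and 345 CPM against 229, 196 and 233 CPM (0.63). BAX, a death effector, was at 128, 113 and 120 CPM against 148, 145 and 173 CPM (−0.36). NRF2 targets and iron genes had 1 higher (4.76%), SLC7A11, and 5 lower (23.8%) of 21 (median −0.02, and 0.08 on the TPM scale). Among the lower were NQO1 (−0.85) and FTL, ferritin light chain and the most abundant (1030, 1390 and 1213 CPM against 1564, 1545 and 1617 CPM, −0.39).

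**Figure D4:**
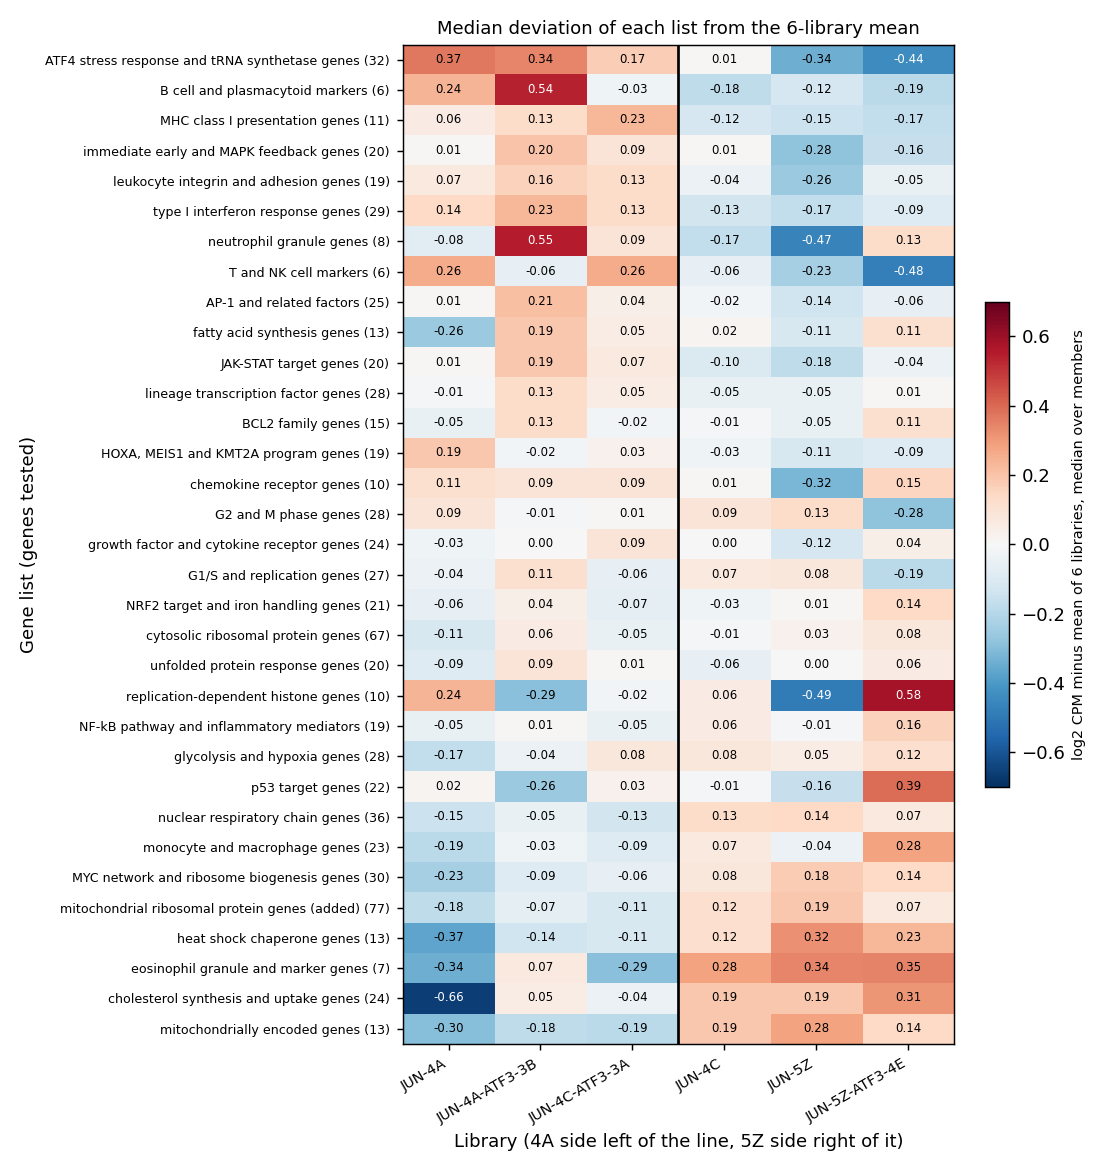
Median over each list's tested members of log2 CPM minus the gene's mean over the 6 libraries, for the lists with at least 5 tested genes, ordered by the difference between the sides. The ATF4 list runs from 0.37 in JUN-4A to −0.44 in JUN-5Z-ATF3-4E, the mitochondrially encoded list runs the other way, and the cholesterol list is at −0.66 in JUN-4A alone.

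Leading single genes were taken at a mean of at least 5 CPM. The largest difference was that of FSTL5 (chromosome 4, 161383897 to 162164035, minus strand, GRCh38), a secreted follistatin-like glycoprotein. It had 1, 0 and 1 reads on the 4A side and 491, 342 and 578 reads on the 5Z side. This was the 1 gene of all tested that was absent (3 reads at most) in all libraries of 1 side and at 1 CPM or more in each of the other. The 17 other tested genes within 5 Mb had a median difference of −0.03. None of those 17 was absent on a side.

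Other leading genes of the 5Z side were expressed in all libraries. NAV3, a neuron navigator protein, was at 10.4, 17.1 and 20.96 CPM on the 4A side and at 36.3, 65.2 and 68.5 CPM on the 5Z side (−1.81, and −0.83 on the TPM scale). FSCN1, the actin-bundling protein fascin, was at 12.9, 3.74 and 16.8 CPM against 29.7, 25.0 and 32.2 CPM (−1.62). ITPRIPL1 (−1.83), EEF2K, the kinase that inhibits elongation factor 2 (−1.58), MOAP1, a BAX partner (−1.29), and PON2, a paraoxonase (−1.27), followed. EEF2K was at 3.71, 3.26 and 1.44 CPM against 7.63, 15.1 and 4.31 CPM, so JUN-5Z-ATF3-4E was only just above JUN-4A. Its edgeR log2 fold change for genotype was about as large (−1.55, SE 0.58, adjusted p = 0.838). EEF2K moved to −0.19 on the TPM scale, where a gene's value depends on which of its transcripts carry the reads. SYNRG (−3.01) and RPS9 (−2.26) also ranked among the leading genes and are uncertain. The 772-base transcript that carried the difference in RPS9 had 0 reads in each library of the 4A side and 1349, 1133 and 1420 on the 5Z side, and a transcript of the same length with no gene match here had equal reads. Of the 212 genes, 4 had over 50% of their reads in transcripts listed at 0 on 1 side: RPS9, SPRY1, BCAR3 and ENSG00000254692. In SYNRG 1 transcript of 8141 bases had 0 reads in JUN-4A and in JUN-4C-ATF3-3A and 374 in JUN-4A-ATF3-3B, and the gene stood at −0.25 on the TPM scale.

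On the 4A side the leading genes were SELENON and HOXB9. SELENON, a selenoprotein of the endoplasmic reticulum, was at 31.7, 58.8 and 33.1 CPM against 9.35, 4.93 and 5.69 CPM (2.61). HOXB9, a homeobox factor, was at 8.20, 7.84 and 10.5 CPM against 5.65, 0.539 and 0.848 CPM (2.58), so that JUN-4C stood nearer to the 4A side. DNASE2, the lysosomal nuclease, was at 39.8, 21.03 and 20.2 CPM against 10.4, 4.12 and 5.30 CPM (2.06), and CNTN4, a contactin of the nervous system, at 175, 119 and 82.0 CPM against 54.2, 18.1 and 25.2 CPM (2.03). P2RX7, the ATP-gated channel of myeloid cells, was at 34.8, 27.9 and 54.6 CPM against 14.6, 8.74 and 19.2 CPM (1.47). KDM7A, a histone demethylase, was at 78.2, 77.8 and 77.7 CPM against 41.8, 21.2 and 28.8 CPM (1.40), a level shared closely by all 3 libraries of the 4A side. PRAM1, an adaptor of myeloid cells (1.54), ANK2, an ankyrin (1.43), and ULBP1, a ligand of the NK receptor NKG2D (1.42), were also among the leading genes, as were TRIB3 and ATF5.

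**Figure D5:**
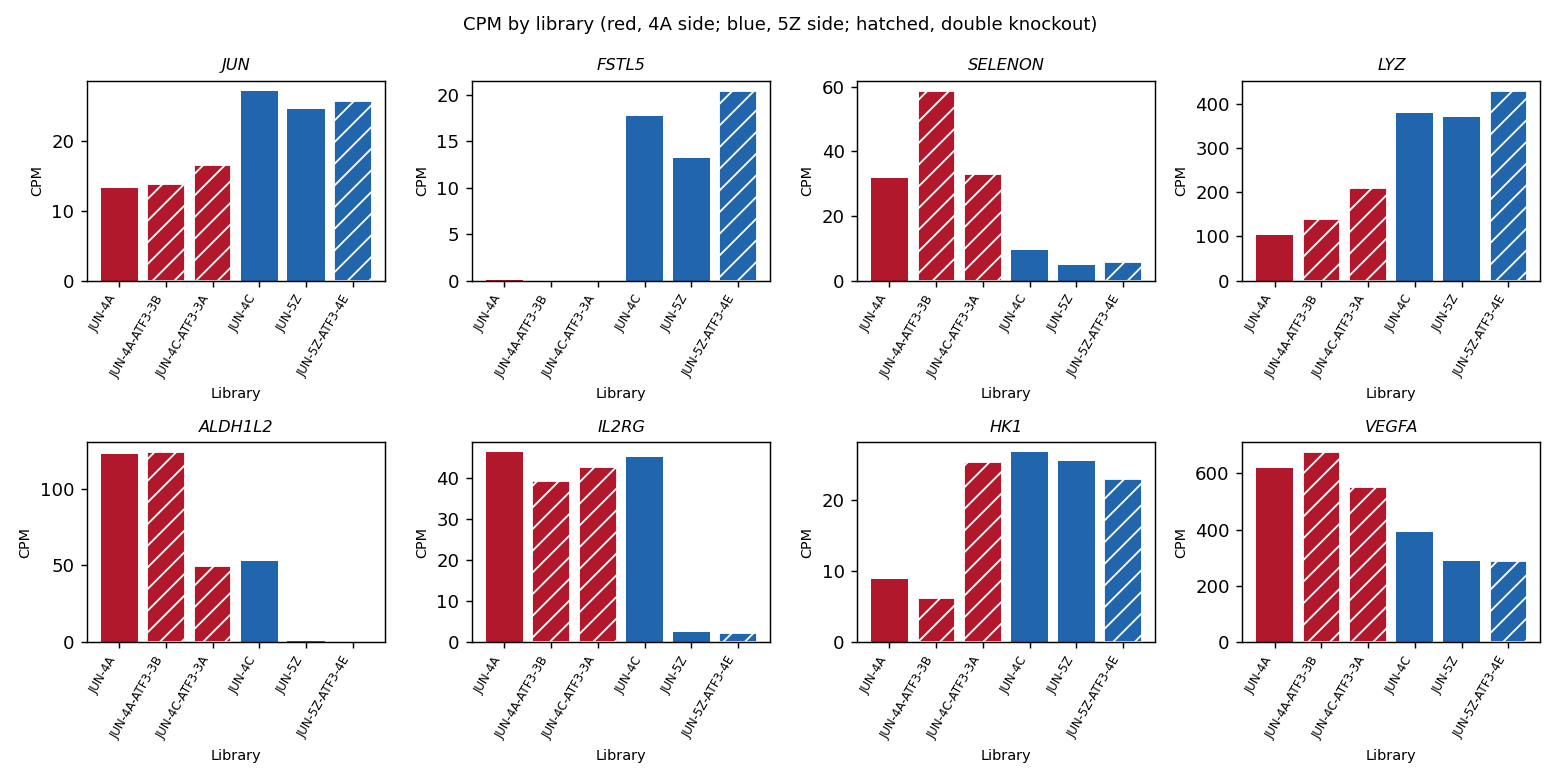
CPM of 8 genes in each library, as bars from 0, red for the 4A side and blue for the 5Z side, hatched for the double knockout. JUN, FSTL5, SELENON, LYZ and VEGFA separate the sides, whereas ALDH1L2 and IL2RG are near 0 in both libraries of code 5Z and HK1 is lowest in both of code 4A.

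Several genes followed the clone code and not the split. KCNK5, a potassium channel, had 96 and 147 reads in JUN-4A and JUN-4A-ATF3-3B and 0 in the other 4 libraries. IGSF10, an immunoglobulin superfamily gene, had 0 and 1 reads in those libraries and 178 to 415 in the others. TMEM63C, of a family of mechanosensitive channels, had 0 reads in both 4C libraries and 103 to 218 elsewhere. ANXA6, an annexin, had 0 reads in both 5Z libraries and 93 to 277 elsewhere, and POU3F2 had reads in the 5Z libraries only, at 51 and 45. These genes were chosen after their values were seen, by a rule of absence or presence in both libraries of a code. That JUN-4C and JUN-4C-ATF3-3A shared a state in each of them follows from this rule. IL2RG, the common gamma chain of cytokine receptors, was at 46.3, 39.1 and 42.6 CPM on the 4A side and at 44.9, 2.43 and 2.12 CPM on the 5Z side, so it too followed code 5Z. TAPBP and RPS18, in the complex on chromosome 6, differed in the 5Z libraries as well and are uncertain because of those alternative copies. CCL5 had 0 CPM in JUN-4A and JUN-4C-ATF3-3A but 27.8 CPM in JUN-4A-ATF3-3B, a pattern that neither side nor code gave. The SYNRG transcript described above, from the same chromosome as CCL5, likewise had 0 reads in JUN-4A and JUN-4C-ATF3-3A but not in JUN-4A-ATF3-3B. CCL5 is therefore treated as uncertain, as SYNRG is, and the cause of the shared pattern was not tested. By the same rule for absence, 1 gene followed the genotype. TRIM26, a ubiquitin ligase gene in the same complex on chromosome 6 and so equally uncertain, had 87, 127 and 59 reads in JUN-4A, JUN-4C and JUN-5Z and 0 in all 3 double knockout libraries (edgeR adjusted p = 0.397).

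Within a clone code, the double knockout library was set against the JUN knockout library. The 145 genes higher on the 4A side had medians of −0.03 in code 4A, 0.85 in code 4C and 0.29 in code 5Z, and the 67 lower genes had −0.07, −1.13 and 0.01. The direction in code 4C is fixed by the choice of genes, because its libraries lie on opposite sides. Between codes 4A and 5Z the medians were 1.46 and −1.53, and their direction is fixed by the choice of genes as well. For the ATF4 list the median difference between codes 4A and 5Z was 0.71. Its median within-code differences were 0.02 in code 4A, 0.15 in code 4C and −0.12 in code 5Z. The difference in code 4C, across the split, was thus about as large in size as that in code 5Z, within a side. In the plot of list medians its 4C libraries stood at 0.17 and 0.01, the 4A libraries at 0.34 and 0.37 and the 5Z libraries at −0.44 and −0.34. There was 1 library per code and genotype, so no error can be given to these differences.

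The genes most like the first principal component were taken among those with a mean of at least 20 CPM, by Pearson r over the 6 libraries. They were GFPT1, the entry enzyme of hexosamine synthesis (r = 0.999), COPA, a coat protein of Golgi vesicles (0.998), FBXO46, an F-box protein (0.997), SRRD (−0.997) and STAT5B (0.997). GFPT1 was at 51.5, 49.7 and 44.7 CPM against 36.1, 31.4 and 32.5 CPM (0.54), with the order of the libraries that the component gives. As the component was made from these genes' values, the correlations are a description only.

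The 13 mitochondrially encoded genes, described above, were all lower on the 4A side, with a median of −0.43. On the autosomes and X, median differences over a chromosome's tested genes ran from −0.062 on chromosome 19 to 0.088 on chromosome 13. Genes at least 2-fold apart without overlap lay on every autosome except 13 and on X. The highest shares were 8 of 340 tested genes (2.35%) on chromosome 20 and 16 of 704 (2.27%) on chromosome 12.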

How the data were processed

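FastQC 0.11.9, Salmon 1.6.0 and the build hg38 are named, without roles, in the submitters' processing notes. Per the labels, RNA was polyA RNA from a stranded kit. The authors deposited an estimated count and a TPM value (relative transcript abundance) for each transcript, per the file headers. Here 167027 of 177456 transcripts (94.1%) were joined by identifier to GENCODE (GRCh38) and their estimated counts summed over 35052 genes and rounded. The rest held 3.58% to 3.71% of a library's reads. edgeR 4.0.16 (R 4.3.3) filtered low counts, scaled by TMM and gave log2 CPM with a prior count of 2. TPM was summed per gene for an alternative, as log2(TPM + 0.5), without TMM scaling.

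No test was run on the split. Genotype was tested with edgeR's quasi-likelihood test, two-sided, Benjamini-Hochberg adjusted at 0.05, and alternatively with DESeq2 1.42.0 and limma 3.58.1. The procedure was tested on simulated data. As separate cultures are not stated, its p-values measure only the spread between libraries. The members, lists and rules were chosen with earlier results of these data known. The 35 lists hold 840 entries, and 6 entries had no match. Named were the 12 largest differences without overlap in each direction at a mean of at least 5 CPM, JUN and ATF3, the 5 genes most like the first component, and in each list the most abundant member and the 2 to 4 with the largest differences. Some genes that this rule names are not reported here. Other list members were named after their values were seen. Alternatives changed the scaling, filter, fold and unit, added genotype as a term, left libraries out, and corrected each library's deviations for gene length and GC content.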

Additional observations from a re-analysis of the deposited data

Results flagged for a closer look

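Among the 10429 transcripts that matched no gene here, and so entered no comparison, 19 had at least 30 reads in each library of 1 side and at most 3 in each of the other. Of these, 12 were absent on the 4A side and 7 on the 5Z side. Among the 167027 matched transcripts the same pattern was seen in 153, of which 89 were absent on the 4A side and 64 on the 5Z side. The deposited tables hold no control sample for this pattern, and the sequences of the unmatched transcripts were not used.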

How the results depend on the processing

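Numbers higher and lower on the 4A side were 239 and 104 with no low-count filter, 461 and 296 at a fold of 1.5, and 346 and 209 without both JUN-4C libraries. Lower genes were 29 on the TPM scale and 101 with genotype as a term. Leaving out 1 library gave 142 to 257 higher and 94 to 169 lower. List medians on the TPM scale were −0.05 (eosinophil), 0.51 (MHC class I), 0.27 (AP-1), 0.25 (JAK-STAT), 0.14 (receptors), 0.38 (integrins), 0.01 (glycolysis, turned), 0.04 (unfolded protein response), 0.08 (NRF2), 0.06 (p53, turned), 0.14 (G1/S), −0.17 (MYC), 0.06 (ribosomal proteins), −0.32 (mitochondrially encoded), −0.11 (respiratory chain), −0.15 (mitochondrial ribosomal), 0.25 (HOXA) and 0.21 (lineage factors). Each of these TPM medians was above its list's median on the main CPM scale, and TPM was not scaled by TMM. Mitochondrially encoded genes summed to 124000 to 128900 TPM on the 4A side and 149600 to 167200 TPM on the 5Z side. The part of a shift common to all genes in these moves was not tested. With no filter the list medians were −0.03 (eosinophil), −0.01 (NF-kB) and −0.12 (B cell, turned). With genotype as a term they were −0.25 (eosinophil), −0.37 (monocyte), −0.09 (chemokine receptors) and 0.21 (HOXA). Without both JUN-4C libraries they were 0.33 (interferon), 0.72 (ATF4), −0.10 (NRF2), 0.23 (HOXA) and 0.31 (erythroid). With the length and GC correction they were −0.08 (monocyte), 0.27 (MHC class I), −0.07 (receptors), 0.05 (ribosomal proteins), −0.32 (mitochondrially encoded) and 0.06 (lineage factors). Leaving out 1 library gave ranges of −0.13 to 0.56 (B cell, turned without JUN-4C at −0.07 and without JUN-4A-ATF3-3B at −0.13), 0.30 to 0.39 (MHC class I), −0.27 to 0.04 (MHC class II, turned without JUN-5Z-ATF3-4E), −0.16 to 0.04 (NRF2), −0.14 to 0.28 (erythroid), −0.10 to 0.10 (receptors), 0.15 to 0.36 (integrins), −0.32 to 0.03 (monocyte, turned without JUN-4A at 0.03 and without JUN-5Z-ATF3-4E at 0.01), 0.21 to 0.32 (interferon) and −0.09 to 0.02 (unfolded protein response). Except where fewer genes or libraries entered, the cause was not tested. The other 380 list values moved by less than the spread between libraries.

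The genotype test called 1 gene with no filter, 71 with DESeq2 and 4 with limma-voom, and 0 with the replicate block, with RLE scaling and without any 1 library. With the block 1268 genes were under 0.05 before adjustment, and edgeR's lowest adjusted p was 0.0873. With the side of the split as a term it called 0, with p-values that are too small. Same-numbered libraries, which share a clone code, deviated from their group means with correlations of 0.33, 0.096 and 0.41. JUN-4C-ATF3-3A correlated about as well with JUN-4A (0.11) as with JUN-4C (0.096). The main genotype test did not use this pairing, and these correlations do not decide whether it should.

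Depth limits genes near 0: at 26146998 reads, a count of 3 is the floor used for absence.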
